A study of Mus musculus with 2 samples.

Results

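A set of 10 bone and cartilage genes was followed in polyadenylated RNA of mouse brain: Ibsp, Spp1, Sp7, Runx2, Alpl, Sparc, Mmp13, Acan, Dmp1 and Bglap. They are 10 of 43346 annotated genes in the gene tables. They were selected because Ibsp differed strongly between the libraries, so the values of Ibsp that follow, and the comparison between the libraries in general, describe what the selection was made on and were not tested. The tissue was whole brain of C57BL/6J embryos at embryonic day 14.5, taken from littermates of both sexes, and the labels name no genotype or treatment beyond the strain. It was measured in 2 libraries, labelled as biological replicates 2 and 1 of the same tissue. The embryos behind each library are not identified in the labels, and the difference between the libraries may be technical. The expected counts on annotated genes summed to 97539730 in replicate 2, against 103493289 in replicate 1.

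Osteoblasts, the cells that lay down bone, form from mesenchyme under the transcription factors Runx2 and Sp7. They secrete type I collagen together with small acidic phosphoproteins that bind mineral and integrins, and Alpl on their surface removes the pyrophosphate that blocks mineral growth. In the embryonic head the flat bones of the skull form directly in mesenchyme over the brain, while the skull base forms first as cartilage, whose main proteoglycan is aggrecan (Acan). Some of these genes are also used inside the brain: Sparc in vessels and glia, and Spp1 in a subset of microglia.

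In replicate 2, Ibsp, Spp1 and Sp7 stood at least 2-fold higher than in replicate 1 on the log2(TPM + 1) scale, and no gene of the 10 stood 2-fold lower. TPM is a level scaled by transcript length and library total, and the addition of 1 makes the ratio of low genes smaller than the ratio of their counts. Of the 15240 genes whose mean TPM was 1 or above, 2.39% were as far apart in that direction and 1.14% in the other, and over all annotated genes without a filter 0.911% were as far apart in that direction. Since the selection used this contrast, nothing is read from the count of 3. Just inside the threshold lay Spp1 at a log2 ratio of 1.32 and just outside it Runx2 at 0.91. Of the 10, 6 passed the mean of 1 TPM, and Ibsp, Sp7 and Runx2 passed it through replicate 2 alone. In bulk tissue, fewer cells of a type and less RNA per cell cannot be told apart. Intervals beside levels are the submitters', drawn around the posterior mean TPM, and cover estimation from reads of a single library, and ratios of counts carry an exact conditional binomial interval of 95%, which covers counting error.

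**Figure D1:**
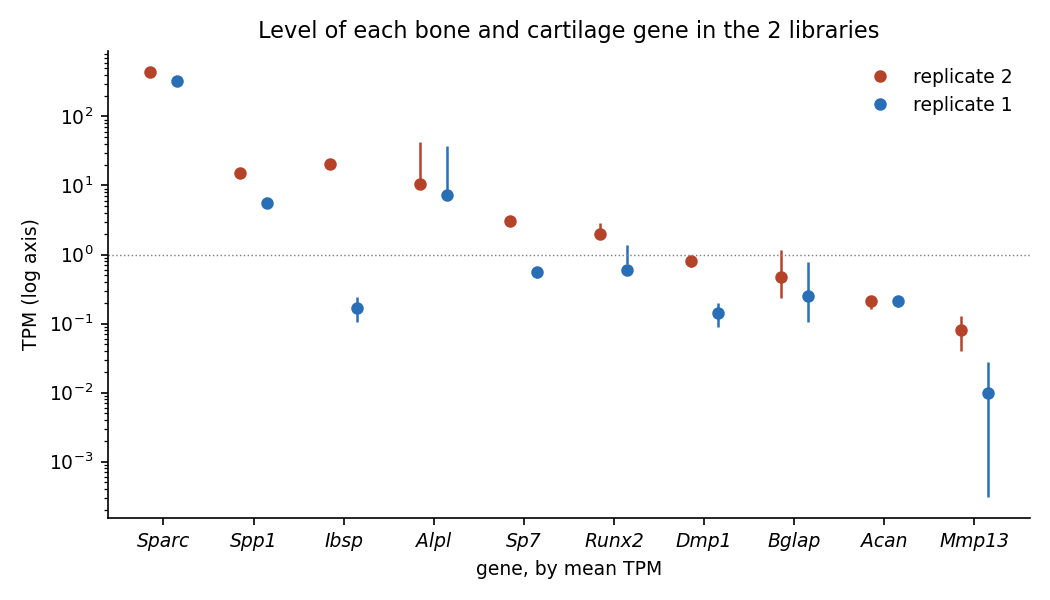
TPM of each gene (log axis) in replicate 2 and replicate 1. Points are the deposited TPM, vertical lines the submitters' intervals around the posterior mean, and the dotted line marks 1 TPM. Ibsp stood at 20.3 TPM in replicate 2, against 0.17 TPM in replicate 1, while Acan stood at 0.21 TPM in both.

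Ibsp, Spp1 and Dmp1 belong to the SIBLING family, integrin-binding glycoproteins of mineralised tissue whose genes form a cluster on mouse chromosome 5. The bases before their RefSeq transcription starts are shown because these 3 genes of the cluster were all higher in replicate 2. Sequences are from the RefSeq table on GRCm38.p6, 5′ to 3′ on the plus strand, which is the coding strand of all 3, and each ends at the base before the start. Capitals mark matches to ACCACA (the core bound by RUNX factors), CCAAT (read as ATTGG on the opposite strand) and TATAAA (read as TTTATA on the opposite strand). Ibsp is shown for chr5:104299037-104299286, Spp1 for chr5:104434861-104435110 and Dmp1 for chr5:104202367-104202616.
Ibsp: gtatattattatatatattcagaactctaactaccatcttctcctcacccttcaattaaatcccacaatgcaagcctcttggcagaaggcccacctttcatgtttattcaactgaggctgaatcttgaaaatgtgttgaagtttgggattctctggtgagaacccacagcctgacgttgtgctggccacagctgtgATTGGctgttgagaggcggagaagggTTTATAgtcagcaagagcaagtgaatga
Spp1: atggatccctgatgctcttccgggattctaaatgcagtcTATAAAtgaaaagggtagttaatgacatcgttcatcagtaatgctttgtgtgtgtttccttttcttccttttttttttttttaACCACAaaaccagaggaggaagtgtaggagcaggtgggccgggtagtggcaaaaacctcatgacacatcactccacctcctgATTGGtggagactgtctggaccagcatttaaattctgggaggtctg
Dmp1: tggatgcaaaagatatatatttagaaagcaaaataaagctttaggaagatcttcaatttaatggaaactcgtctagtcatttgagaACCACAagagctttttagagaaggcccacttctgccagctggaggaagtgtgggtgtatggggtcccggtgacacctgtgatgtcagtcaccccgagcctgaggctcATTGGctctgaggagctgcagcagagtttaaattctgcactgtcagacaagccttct

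Each of the 3 windows held an inverted CCAAT, which began 54 bases before the start in Ibsp, 46 in Spp1 and 57 in Dmp1. ACCACA lay 128 bases before the start in Spp1 and 164 in Dmp1, and had no match in Ibsp. Ibsp also had an inverted TATAAA at 28 bases before the start, and Spp1 had TATAAA at 211. The RefSeq start of Ibsp lies 116 bases inside the gene as GENCODE gives it, so its marked matches fall within that gene. For Spp1 and Dmp1 the RefSeq and GENCODE starts are 7 and 4 bases apart. Promoter windows of 300 bases (250 before and 50 after the start) were listed for 9 of the 10 genes. On either strand ACCACA was in 6 of those 9 windows, against 16.8% of the 32851 mouse windows in the table, CCAAT was in 5 against 37.4%, TATAAA in 4 against 13.6% and TAATTA, a homeodomain core, in 0 against 5.29%. The 6 genes with ACCACA were Spp1, Dmp1, Runx2, Sparc, Mmp13 and Bglap, with 3 matches in Runx2. A match describes letters in a window and is not evidence of binding.

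Bone sialoprotein, the product of Ibsp (ENSMUSG00000029306, chr5:104299171-104311469, plus strand, GRCm38), nucleates mineral in new bone and marks osteoblasts that are forming matrix. Its level was 20.3 TPM in replicate 2 (interval 19.2 to 20.9) and 0.17 TPM in replicate 1 (interval 0.105 to 0.246), from 2308 and 21 expected counts. Replicate 2 was thus high and replicate 1 close to absent, although 21 counts (Poisson interval 13.0 to 32.1) lie above the 3 counts that a count of 0 would allow. The log2 ratio of replicate 2 over replicate 1 was 4.18, and as a share of counts Ibsp was 117-fold higher in replicate 2 (interval 76.1 to 189). Among 13642 protein-coding genes with a mean TPM of at least 1, none had a higher log2 ratio, and among all 15240 genes 4 did. Ranked by TPM within the 10 genes, Ibsp was the second in replicate 2 and the eighth in replicate 1.

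The protein-coding genes with the ratios nearest to that of Ibsp, over these 2 libraries, were Srp54a (log2 ratio 3.67), Hoxb8 (3.56), Hoxb5 (3.19), Hoxb6 (2.92) and Hoxa5 (2.85). None is a bone matrix gene: the Hox genes are position factors of the hindbrain and trunk, and Srp54a encodes a subunit of the signal recognition particle. Srp54a has near-identical copies, so its level, 15.1 TPM in replicate 2, against 0.27 TPM in replicate 1, is uncertain. Hoxb8 stood at 14.5 TPM in replicate 2, against 0.32 TPM in replicate 1.

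Osteopontin, encoded by Spp1 (ENSMUSG00000029304, chr5:104435118-104441050, plus strand), binds mineral and cell surface integrins and is also secreted by macrophages. Spp1 had 15.3 TPM in replicate 2 (interval 14.5 to 16.4) and 5.55 TPM in replicate 1 (interval 5.19 to 6.33), from 1124 and 453 expected counts. Unlike Ibsp it was well above 1 TPM in both libraries, and its intervals did not overlap. The log2 ratio was 1.32 and the ratio of count shares 2.63 (interval 2.36 to 2.94).

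Dmp1 (ENSMUSG00000029307, chr5:104202613-104214102, plus strand) encodes a matrix protein of osteocytes and dentin. It had 0.80 TPM in replicate 2 (interval 0.659 to 0.935) and 0.14 TPM in replicate 1 (interval 0.0886 to 0.199), from 125 and 24 expected counts. Both libraries were below 1 TPM. The log2 ratio with a pseudocount of 1 was 0.66, short of 2-fold, whereas the ratio of count shares was 5.53 (interval 3.55 to 8.95).

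The other members of the family, Dspp of dentin and Mepe of osteocytes and dentin, had 0 expected counts in both libraries. A count of 0 allows up to 3 counts, which is a share of 3.08e-06% in replicate 2, against 2.90e-06% in replicate 1. Of the summed TPM of the 5 SIBLING genes, 36.4 in replicate 2, against 5.86 in replicate 1, Ibsp made up 55.7% in replicate 2, against 2.90% in replicate 1. Ibsp itself lies between the small RNA gene Gm23616 and Mepe, both at 0 TPM in both libraries. On the far side of Spp1, Pkd2, which encodes a cation channel of cilia, had 25.5 TPM in replicate 2, against 27.8 TPM in replicate 1. Sparcl1, a SPARC-related matrix protein gene beyond Dspp, had 99.3 TPM in replicate 2, against 54.7 TPM in replicate 1, with a log2 ratio of 0.85.

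**Figure D2:**
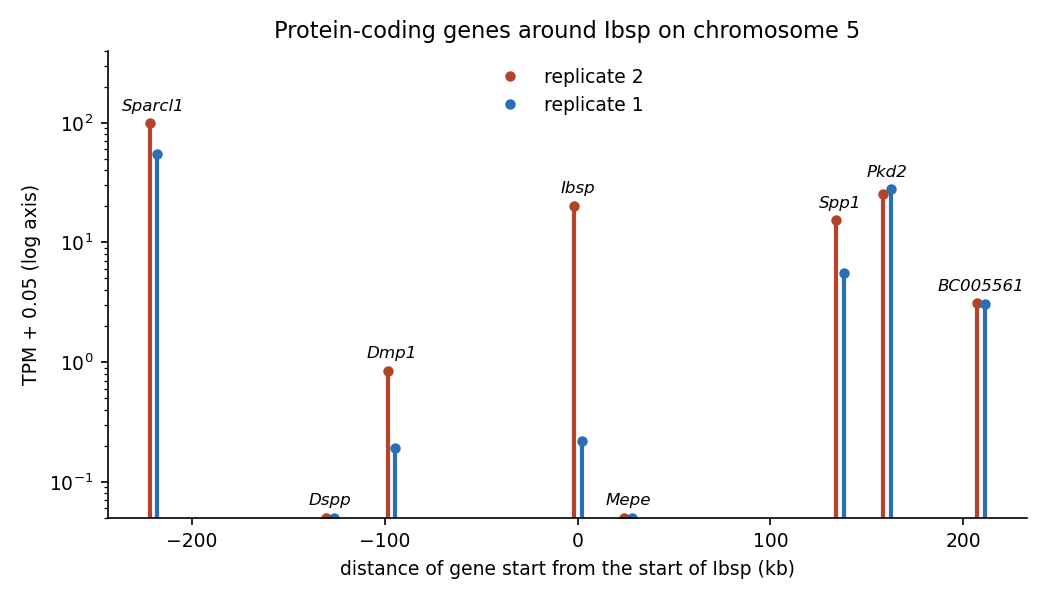
TPM + 0.05 (log axis) of the protein-coding genes around Ibsp in replicate 2 and replicate 1, against the distance of each gene's start from that of Ibsp in kb. Ibsp stood at 20.3 TPM in replicate 2, against 0.17 TPM in replicate 1, Dspp and Mepe lay at 0 in both libraries, and Pkd2 lay at 25.5 TPM in replicate 2, against 27.8 TPM in replicate 1.

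Reads across splice junctions, deposited on mm9 as counts numbered R1 and R2 that are not tied to a sample, showed that the Ibsp signal was spliced. All 6 annotated junctions of Ibsp carried reads, between 63 and 197 each, with 679 reads in R2 and 10 in R1 in sum. From the 5′ end R2 held 85, 61, 84, 92, 162 and 195 reads and R1 held 4, 2, 1, 1, 0 and 2 reads. Every junction of the gene was thus high in the same value. The 5 further Ibsp junctions outside the annotation had 8 reads in all. Spp1 had 773 reads in R2 and 381 in R1 over 8 annotated junctions, and Dmp1 had 20 in R2 and 1 in R1 over 5. Relative to all junction reads, 47694368 in R2 and 52704888 in R1, the ratio of R2 over R1 was 75.0 for Ibsp, 2.24 for Spp1 and 22.1 for Dmp1, the last resting on a single R1 read.

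**Figure D3:**
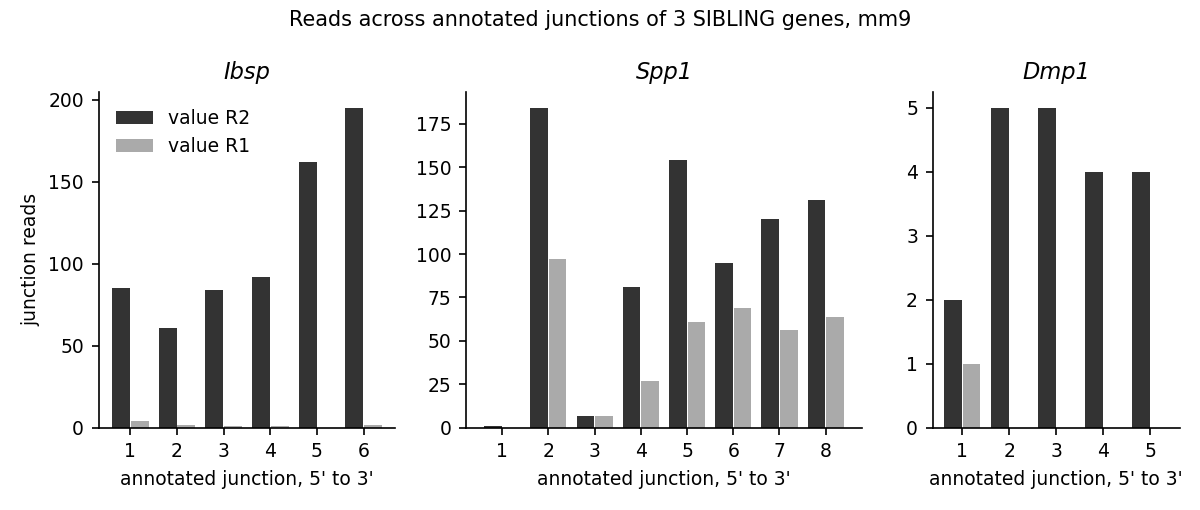
Reads across the annotated mm9 junctions of Ibsp, Spp1 and Dmp1, in the order of the transcript, for the deposited values R2 (dark bars) and R1 (light bars), each panel with its own scale. The last Ibsp junction had 195 reads in R2 and 2 in R1.

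Among the other members, annotated junctions of Sparc carried 31050 reads in R2 and 23160 in R1, those of Alpl 1100 in R2 and 741 in R1, and those of Runx2 85 in R2 and 33 in R1. Sp7 had 15 in R2 and 9 in R1, and Acan, the member that ran the other way, had 68 in R2 and 121 in R1. Bglap had 15 in R2 and 2 in R1, and Mmp13 had 5 in R2 and 1 in R1. For Sp7 the junction ratio per junction read was 1.84, lower than its ratio of 5.29 by mm10 count shares, and it rests on 24 reads.

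The deposited mm9 contigs, stretches of signal deposited as a single set on a scale that the files do not state, had their highest levels over exons for Ibsp and Spp1. On the Ibsp strand 5 contigs touched an exon, with levels of 0.159 to 4.04, while the 3 that lay outside exons had 0.064 to 0.117 and a single contig on the opposite strand had 0.026. Spp1 exon contigs reached 5.05. For Dmp1 the exon contigs on its own strand reached 0.214, and a contig over an exon on the opposite strand reached 0.323.

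The osteoblast regulators Sp7 and Runx2 stood at low levels. Sp7 (ENSMUSG00000060284, chr15:102356606-102367182, minus strand), the zinc-finger factor osterix that commits progenitors to the osteoblast fate, had 3.11 TPM in replicate 2 (interval 2.82 to 3.35) and 0.56 TPM in replicate 1 (interval 0.456 to 0.668), from 514 and 103 expected counts. On the log2 scale the ratio was 1.40, and its ratio of count shares 5.29 (interval 4.28 to 6.61). Runx2 (ENSMUSG00000039153, chr17:44495987-44814797, minus strand), which acts upstream of Sp7, had 2.01 TPM in replicate 2, against 0.60 TPM in replicate 1, from 459 and 192 expected counts.

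The intervals of Runx2 were 1.92 to 2.89 in replicate 2, against 0.729 to 1.38 in replicate 1, around posterior means of 2.39 TPM in replicate 2, against 1.02 TPM in replicate 1, so the deposited TPM of replicate 1 lies below its interval. Sp7 and Runx2 were above 1 TPM in replicate 2 and below it in replicate 1. The log2 ratio of Runx2 was 0.91, short of 2-fold, and its ratio of count shares 2.54 (interval 2.14 to 3.02). Runx2 was spread over transcripts, with 7 of 13 carrying counts. By the deposited isoform percentage the coding transcript Runx2-202 led with 39.4% in replicate 2, against 49.8% in replicate 1, and the nonsense-mediated decay transcript Runx2-212 had 7.74% in replicate 2, against 30% in replicate 1. Such shares are estimates from reads that transcripts have in common. Supt3, a chromatin factor gene, overlaps Runx2 on the opposite strand and had 6.79 TPM in replicate 2, against 5.34 TPM in replicate 1. The libraries were stranded per the labels, but whether the counting used strand is not stated there.

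Alpl (ENSMUSG00000028766, chr4:137741733-137796384, minus strand), tissue-nonspecific alkaline phosphatase, had 10.6 TPM in replicate 2, against 7.30 TPM in replicate 1, from 1494 and 1124 expected counts. It was above 1 TPM in both libraries and less than 2-fold apart, with a log2 ratio of 0.49 and a ratio of count shares of 1.41 (interval 1.30 to 1.53). The submitters' posterior mean was higher, 21.5 TPM in replicate 2, against 17.4 TPM in replicate 1, with wide intervals of 10.4 to 42.6 in replicate 2 and 7.27 to 37.4 in replicate 1 that overlap. Alpl-201 held 98.9% of the TPM in replicate 2, against 97.3% in replicate 1.

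Sparc (ENSMUSG00000018593, chr11:55394500-55423183, minus strand), the collagen-binding glycoprotein osteonectin, had the highest level of the 10 in both libraries. It had 434 TPM in replicate 2 (interval 420 to 441) and 331 TPM in replicate 1 (interval 320 to 336), from 36507 and 27563 expected counts. Its log2 ratio was 0.39 and its ratio of count shares 1.41 (interval 1.38 to 1.43). Sparc made up 89.1% of the summed TPM of the 10 genes in replicate 2, against 95.7% in replicate 1, and without it the sum was 52.9 TPM in replicate 2, against 14.8 TPM in replicate 1. The leading Sparc transcript changed with the library: Sparc-201 led with 31.5% in replicate 2 and had 23.9% in replicate 1, and the short Sparc-206 had 25.5% in replicate 2 and led with 34.1% in replicate 1.

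Bglap (ENSMUSG00000074483, chr3:88383501-88384464, minus strand), osteocalcin of mature osteoblasts, had 0.48 TPM in replicate 2 (interval 0.237 to 1.15) and 0.25 TPM in replicate 1 (interval 0.105 to 0.776). These rest on 6.72 and 3.77 expected counts, and the ratio of the rounded count shares, 1.86, has an interval of 0.472 to 8.65 that holds 1. Reads can be split between the near-identical copies Bglap and Bglap2, whose expected counts were fractional, so their single levels are uncertain. Bglap2 had 14.28 in replicate 2, against 1.23 in replicate 1. Bglap3, of the same cluster, had whole counts and ran the other way, with 5 in replicate 2, against 12 in replicate 1. Its ratio of count shares, 0.442, has an interval of 0.122 to 1.35 that holds 1. The summed TPM of the 3 genes was 1.43 in replicate 2, against 0.55 in replicate 1.

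Mmp13 (ENSMUSG00000050578, chr9:7272514-7283331, plus strand), collagenase-3 of hypertrophic cartilage and bone, had 0.08 TPM in replicate 2, against 0.01 TPM in replicate 1. That is 12 expected counts in replicate 2, against 1 in replicate 1, which is under the floor of 3 counts. The ratio of count shares, 12.7, has an interval of 1.88 to 544. Acan (ENSMUSG00000030607, chr7:79053483-79115099, plus strand), the proteoglycan that gives cartilage its stiffness, had 0.21 TPM in each library, from 90 expected counts in replicate 2, against 104 in replicate 1. The ratio of count shares was 0.918 (interval 0.685 to 1.23), and Acan was the gene of the 10 whose share of counts was lower in replicate 2.

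By mean level the order was Sparc at 383 ± 72.8 TPM (SD, n = 2 for each mean here), Spp1 at 10.4 ± 6.91, Ibsp at 10.2 ± 14.2, Alpl at 8.97 ± 2.36, Sp7 at 1.84 ± 1.80 and Runx2 at 1.31 ± 0.997. Below 1 TPM came Dmp1 at 0.47 ± 0.467, Bglap at 0.365 ± 0.163, Acan at 0.21 with equal values, and Mmp13 at 0.045 ± 0.0495. Spp1, Ibsp and Alpl differed from each other by less than the spread between the libraries. The same held for Sp7 beside Runx2, Runx2 beside Dmp1, Dmp1 beside Bglap and Bglap beside Acan. Of the 10, 3 genes, Spp1, Alpl and Sparc, reached 1 TPM in both libraries, against 62.2% of 21474 protein-coding genes.

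Of the 10, 9 had the higher TPM in replicate 2 and Acan was equal. The submitters' intervals in replicate 2 lay above those of replicate 1 without overlap for 7 of the 10. Among the 6 that reach 1 TPM in the mean this held for 5, against 34.2% of all genes that reach it. On the scale of count shares 6 of the 10 were at least 2-fold higher in replicate 2 (Ibsp, Spp1, Sp7, Runx2, Dmp1 and Mmp13), against 7.77% of 20199 genes with a summed count of 10 or more. The median log2 ratio of TPM + 1 was 0.57 over the 10 genes and 0.01 over the 15240 genes. These are descriptions of a group picked on this difference.

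**Figure D4:**
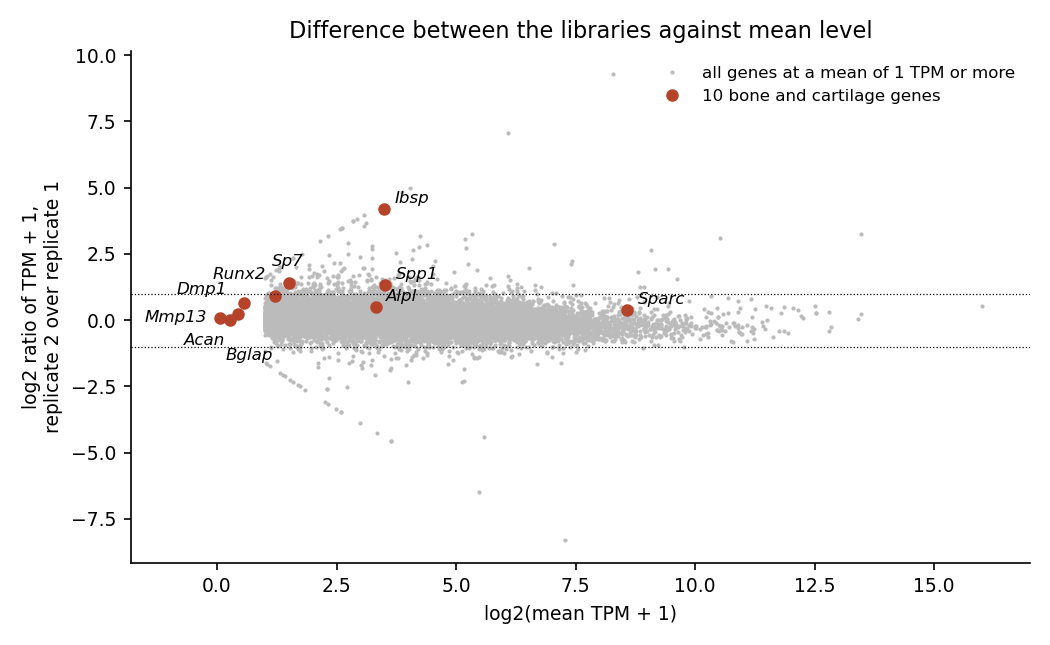
The log2 ratio of TPM + 1 of replicate 2 over replicate 1 against log2 of the mean TPM + 1, for all 15240 genes that reach 1 TPM in the mean (grey) and the 10 bone and cartilage genes (red, all shown). Dotted lines mark 2-fold. Ibsp lies at 4.18, Sp7 at 1.40 and Spp1 at 1.32, and no gene of the 10 lies below 0.

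The lists of other skeletal genes are read beside the 2.39% of genes higher and 1.14% lower given above, which cover genes that reach 1 TPM in the mean. The lists were not filtered by level, and without a filter these shares were 0.911% and 0.429%. A mean of 1 TPM was reached by 7 of 18 cartilage genes, 1 of 6 osteocyte genes and 0 of 5 tooth genes. Of 8 mineralisation genes 1 was at least 2-fold higher in replicate 2 and 0 were lower: Phospho1, the phosphatase that releases phosphate inside matrix vesicles, had 7.54 TPM in replicate 2, against 0.56 TPM in replicate 1. The most abundant of that list, the phosphate transporter gene Slc20a1, had 55.3 TPM in replicate 2, against 47.5 TPM in replicate 1. Of 12 non-collagen bone matrix genes 3 were at least 2-fold higher and 0 lower, with a median log2 ratio of 0.39. Single genes of both lists ran slightly the other way: the log2 ratio was -0.17 for Ank and -0.18 for Slc20a2, which transport pyrophosphate and phosphate, and -0.02 for the periosteal matrix gene Postn.

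Those 3 were Ifitm5, Igfbp5 and Fmod. Ifitm5, a membrane protein gene of osteoblasts, had 5.17 TPM in replicate 2, against 0.45 TPM in replicate 1. Igfbp5, an insulin-like growth factor binding protein gene with wide expression, had 56.1 TPM in replicate 2, against 25.7 TPM in replicate 1. Fmod, which encodes the collagen-binding fibromodulin, had 5.63 TPM in replicate 2, against 2.29 TPM in replicate 1.

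Of 8 skeletal collagens, Col1a1 and Col1a2 were at least 2-fold higher in replicate 2 and 0 were lower. Col1a1, the main chain of bone collagen, had 146 TPM in replicate 2, against 36.6 TPM in replicate 1, and Col1a2 had 143 TPM in replicate 2, against 56.5 TPM in replicate 1. The cartilage collagen Col2a1 had 45.3 TPM in replicate 2, against 64.3 TPM in replicate 1. Ratios of count shares were uneven among the genes of osteoblasts: 117 for Ibsp, 14.3 for Phospho1, 11.2 for Ifitm5, 5.29 for Sp7, 3.80 for Col1a1 and 2.54 for Runx2.

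Of 14 regulators of osteoblast and skull fate 1 was at least 2-fold higher, Sp7, and 0 were lower, with a median log2 ratio of 0.14. Atf4, a stress and amino acid response factor that most cells express, had 176 TPM in replicate 2, against 295 TPM in replicate 1. Cbfb, the partner subunit of RUNX factors, had 24.5 TPM in replicate 2, against 22.2 TPM in replicate 1. Of 6 osteocyte genes 0 were 2-fold apart, and the list includes Dmp1 and Mepe.

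None of the 18 cartilage genes was 2-fold apart in either direction on the log2(TPM + 1) scale, with a median log2 ratio of 0.05 and a range of -0.51 to 0.34. Sox9, the master factor of cartilage that neural progenitors also use, had 25.2 TPM in replicate 2, against 19.9 TPM in replicate 1. Sox5, a partner of Sox9, had 18.8 TPM in replicate 2, against 27.0 TPM in replicate 1. The 18 genes summed to 88.9 TPM in replicate 2, against 86.5 TPM in replicate 1.

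Genes of bone resorption were 2-fold apart in 0 of 11 osteoclast genes and 0 of 3 osteoclast signals. Mmp9, a gelatinase of osteoclasts and other cells, had 25.0 TPM in replicate 2, against 16.3 TPM in replicate 1, and the osteoclast collagenolytic protease gene Ctsk had 8.21 TPM in replicate 2, against 6.06 TPM in replicate 1. Csf1, a macrophage growth factor gene, led the signals with 6.46 TPM in replicate 2, against 5.31 TPM in replicate 1. Matrix proteases and their inhibitors gave 0 of 9, and tooth genes 0 of 5, of which 3 (Dspp, Enam and Odam) had 0 counts in both libraries.

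The addition of 1 TPM hides ratios of low genes in these lists, so the same counts were taken on the scale of count shares for genes with 10 or more counts in sum. On that scale 7.77% of all genes were at least 2-fold higher in replicate 2 and 3.79% at least 2-fold lower. Of the 18 cartilage genes 1 was then higher and 3 lower. Comp and Matn1, matrix proteins of cartilage, had 12 and 24 expected counts in replicate 2, against 49 and 81 in replicate 1. Snorc, a chondrocyte membrane proteoglycan gene, had 5 in replicate 2, against 15 in replicate 1, a ratio of count shares of 0.354 whose interval of 0.101 to 1.02 holds 1. Chad, which encodes chondroadherin, had 30 in replicate 2, against 5 in replicate 1.

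The hypertrophic cartilage collagen Col10a1 was also lower, with 7 expected counts in replicate 2, against 49 in replicate 1. In the bone matrix list 5 of 12 genes were at least 2-fold higher on this scale and 0 lower. The additional ones were Omd, which encodes osteomodulin, with 37 expected counts in replicate 2, against 6 in replicate 1, and the periosteal tenascin gene Tnn with 104 in replicate 2, against 12 in replicate 1. Of the 14 regulators 5 were higher (Sp7, Runx2, Dlx3, Msx2 and Alx4). Among mineralisation genes 2 of 8 were higher, the second being Enpp1, which makes pyrophosphate. Among osteoclast genes 2 of 11 were higher: Itgb3 had 488 expected counts in replicate 2, against 203 in replicate 1, and Tnfrsf11a, the receptor RANK, had 204 in replicate 2, against 90 in replicate 1.

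**Figure D5:**
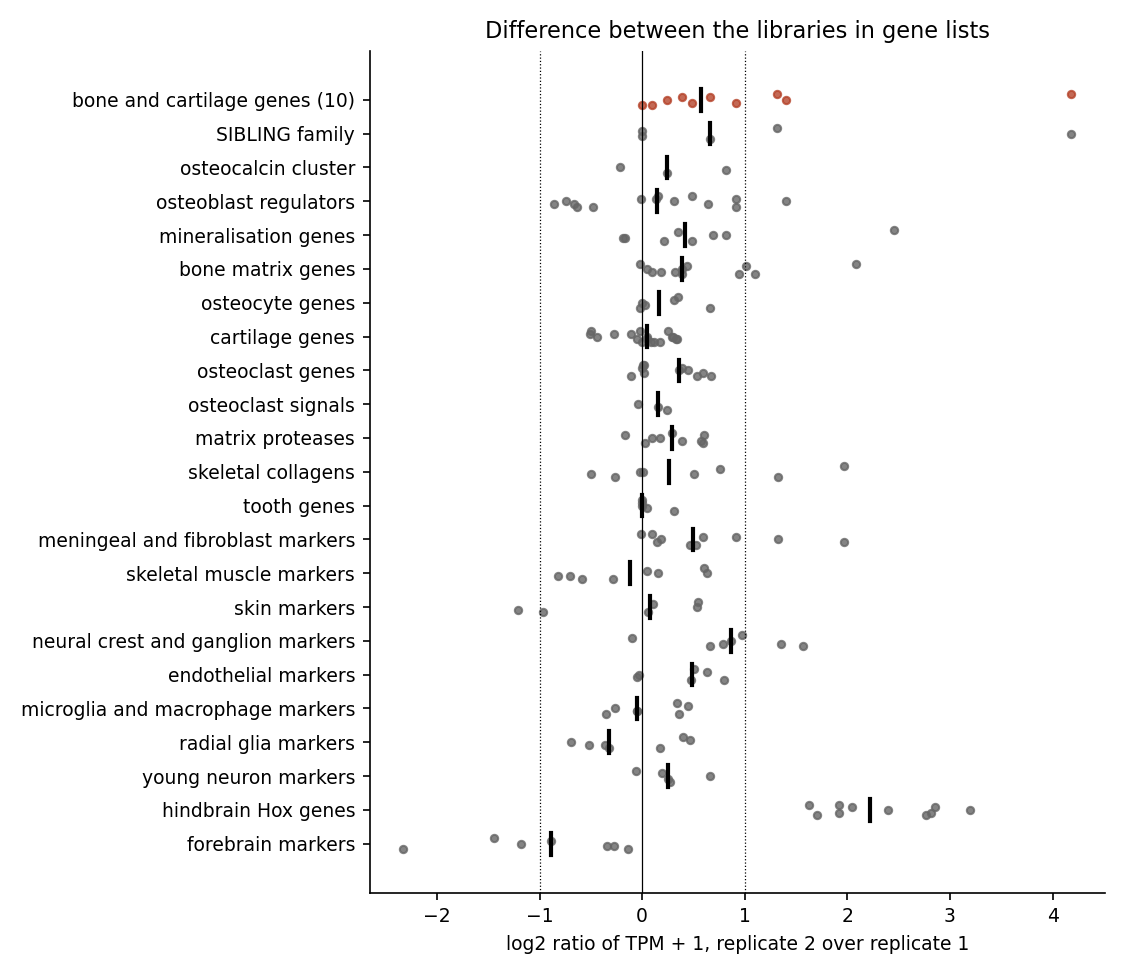
The log2 ratio of TPM + 1, replicate 2 over replicate 1, for every gene (points) of each list, with the list median as a black bar and dotted lines at 2-fold. The 10 bone and cartilage genes are red. The 10 hindbrain Hox genes lie between 1.63 and 3.19, the forebrain markers all lie below 0, and the cartilage genes lie within 0.51 of 0.

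All 10 hindbrain Hox genes were at least 2-fold higher in replicate 2, with a median log2 ratio of 2.22 and a summed level of 199 TPM in replicate 2, against 28.5 TPM in replicate 1. All 7 forebrain markers were lower, Emx1 and Nkx2-1 among them at least 2-fold, with sums of 258 TPM in replicate 2, against 532 TPM in replicate 1. The part of tissue position in the bone gene differences was not tested.

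Among 7 neural crest and ganglion markers the peripheral neuron gene Prph was at least 2-fold higher, and the list summed to 87.4 TPM in replicate 2, against 43.5 TPM in replicate 1. Meningeal and fibroblast markers summed to 457 TPM in replicate 2, against 232 TPM in replicate 1, with 2 of 10 at least 2-fold higher, which were Col1a1 and Col1a2 again. Without these 2 collagens the other 8 markers summed to 168 TPM in replicate 2, against 139 TPM in replicate 1. The lowest of the 10 had at least 1 TPM in both libraries. The part of these cell types was likewise not tested.

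Other marker lists differed less in sum than the neural crest list and the full meningeal list. Skeletal muscle markers still differed more than the meningeal list without Col1a1 and Col1a2. The median log2 ratio was 0.49 for meningeal and 0.49 for endothelial markers. It was -0.05 for microglia and macrophage, 0.08 for skin and -0.12 for skeletal muscle markers. Endothelial markers summed to 190 TPM in replicate 2, against 167 TPM in replicate 1, microglia and macrophage markers to 53.3 TPM in replicate 2, against 54.3 TPM in replicate 1, skin markers to 89.3 TPM in replicate 2, against 82.0 TPM in replicate 1, and skeletal muscle markers to 19.3 TPM in replicate 2, against 27.8 TPM in replicate 1. Of these 27 genes 1 was 2-fold apart on the log2(TPM + 1) scale, the skin keratin gene Krt10, which was lower in replicate 2 at 5.26 TPM than in replicate 1 at 13.5 TPM. By count shares 6 of the 27 were 2-fold apart: the skin keratins Krt1 and Krt10 and the muscle regulators Myod1 and Myog were lower in replicate 2, and the muscle fibre genes Myh8 and Tnnt3 were higher. Markers of neural tissue were high in both libraries. Young neuron markers summed to 4630 TPM in replicate 2, against 4268 TPM in replicate 1, and radial glia markers to 1922 TPM in replicate 2, against 2088 TPM in replicate 1.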

How the data were processed

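The 2 libraries are, per the labels, stranded and paired-end (101 nt) from RNA longer than 200 nt. Per the deposited text notes, the authors estimated expected counts per gene and transcript on mm10 with GENCODE M4. No source used here names the tool. The deposited TPM spans all rows, mitochondrial and spike-in rows included, the deposited FPKM is scaled by length and assigned fragments, and the isoform percent is the deposited share of a gene's TPM. The bounds around posterior mean TPM, handled as a deposited score, are the authors'. On mm9 the deposited contig signal pools both libraries. The deposited junction read counts, numbered R1 and R2, and the deposited RPKM values are not tied to a sample.

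Members and lists were chosen with earlier results of these data known. The text names all 10 members, from each list the 3 highest and those 2-fold apart (in part), the 5 genes nearest to Ibsp in ratio, and chromosome neighbours. Genes named for their count shares alone (such as Comp, Col10a1 and Omd) and counts of lists on that scale were chosen after their values were seen. Some genes of the lists are not reported here by name. Symbols came from GENCODE vM21, and 884 genes had none. With 1 library against 1 no p-value was computed. Called means 2-fold on log2(TPM + 1). Ratios of expected counts, rounded to whole numbers, divide by the sum over annotated genes, with exact 95% intervals. Intervals and the floor of 3 counts cover counting error only. The ratio of count shares and its interval were tested on simulated counts. Alternatives covered the pseudocount (0.1), FPKM, posterior mean TPM, rescaled TPM, TMM (edgeR 4.0.16, prior count 2), DESeq2 1.42.0 size factors, mm9 RPKM, thresholds, filters and each library alone. Python 3.11.15, scipy 1.17.1 and R 4.3.3 were used.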

Additional observations from a re-analysis of the deposited data

Results flagged for a closer look

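Splice junctions outside the annotation, which no comparison of levels uses, carried more than 3 reads (R1 and R2 together) in 6 of the 10 genes. Sparc had 5 such junctions with 12, 6, 5, 4 and 4 reads, beside 54210 reads on its annotated junctions. Alpl had 3 with 7, 4 and 4 reads beside 1841, and Acan had 2 with 7 reads each beside 189. Sp7 had 1 with 7 reads, beside 24 on its annotated junctions. Spp1 had 1 with 6 reads, all in R2, beside 1154, and Runx2 had 1 with 4 reads beside 118.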

How the results depend on the processing

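Ibsp, Spp1 and Sp7 were at least 2-fold higher in replicate 2 under all 6 mm10 alternatives. Ibsp ranged from 3.58 to 6.79, Spp1 from 1.19 to 1.45 and Sp7 from 1.09 to 2.38 on the log2 scale. The count of members 2-fold apart was 3 and came to 5 with a pseudocount of 0.1 TPM, 6 with TMM and 6 with DESeq2 size factors, since Runx2, Dmp1 and Mmp13 are low and the pseudocount of 1 TPM shrinks their ratios. It was 1 with mm9 RPKM (higher over lower, with 1 added to values that are lower than TPM). The median log2 ratio over the members, 0.57, came to 1.09, 1.37, 1.35 and 0.16 under those 4 settings. With mm9 RPKM and no pseudocount, chosen after seeing the data, 7 members were 2-fold apart. Rescaled TPM, which leaves out mitochondrial and spike-in rows and keeps the pseudocount of 1, gave 4, with Runx2 at a log2 ratio of 1.02. Members at 1 TPM or more numbered 3 in both libraries, 5 at a threshold of 0.5 TPM, and from 3 to 6 with each library alone. The 10 hindbrain Hox genes were 2-fold higher in all 6 alternatives and on count shares. The cartilage median of 0.05 was -0.02 with TMM and -0.03 with DESeq2 size factors. Genes 2-fold higher made up 0.911% and genes 2-fold lower 0.429% without a filter on level. No paired analysis was possible because the 2 libraries form a single group. Depth limits Mmp13, Bglap and Dmp1, whose ratios rest on few counts.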

Other observations

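The mm9 gene table gives each gene RPKM values numbered 1 and 2. For Ibsp the value numbered 1 was 2.20 and the value numbered 2 was 0.0559, and the value numbered 1 was the higher for 8 of the 10 genes, all but Alpl and Acan. In the mm9 junction counts the value numbered R2 was the higher for Ibsp, with 679 reads against 10. The mm10 tables label the library with high Ibsp as replicate 2. Over 14406 genes the log2 ratio of the mm9 values, number 1 over number 2, had a Pearson correlation of 0.78 with the log2 ratio of mm10 TPM, replicate 2 over replicate 1 (pseudocount 0.1). The points share the same libraries and genes are not independent replicates. The higher Ibsp value thus carries the number 1 in the mm9 gene table and the number 2 in the mm10 tables and the mm9 junction counts. Which sample each mm9 value belongs to was not tested.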
